A study of Mus musculus with 5 samples.

Results

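The 6 mouse Dlx homeobox genes, Dlx1 to Dlx6, were examined for binding of KAP1 and of Ring1b in embryonic stem cells. They were taken by gene symbol, a rule that uses no measured value, in a family picked with earlier results of these data known. They are 6 of 21031 annotated protein-coding genes. KAP1, encoded by Trim28, is a corepressor that is brought to DNA by zinc finger proteins. Ring1b, encoded by Rnf2, belongs to Polycomb repressive complex 1 and attaches ubiquitin to a core histone at silent developmental genes. Both were mapped by chromatin immunoprecipitation followed by sequencing, in 5 libraries that stood for 5 groups, with 1 library per group.

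The groups came from 2 cell lines whose Trim28 or Rnf2 gene carries a conditional (fl/fl) allele. Ring1b was precipitated from KAP1 fl/fl cells given 4-hydroxytamoxifen, from Ring1b fl/fl cells given 4-hydroxytamoxifen, and from Ring1b fl/fl cells given the ethanol vehicle. KAP1 was precipitated from cells of the KAP1 fl/fl line, again given either 4-hydroxytamoxifen or vehicle. Per the labels' protocols, exposure lasted 24 h and a further 48 h of culture followed, with the drug still present for the Ring1b fl/fl cells and absent for the KAP1 fl/fl cells. All groups grew on irradiated embryonic fibroblast feeders, and the part of the chromatin that came from feeders was not measured. Peak lists hold no expression values, so the identity of the cells was not checked with markers.

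The authors deposited 3 peak lists, each a comparison of 1 library with another. The KAP1 list (82775 peaks) set vehicle cells against tamoxifen cells of the KAP1 fl/fl line. The Ring1b list (13516 peaks) set vehicle cells against tamoxifen cells of the Ring1b fl/fl line. The last list (8928 peaks) set Ring1b in tamoxifen-treated KAP1 fl/fl cells against Ring1b in tamoxifen-treated Ring1b fl/fl cells, and is called the KAP1-knockout list below. A peak's score is the authors' own value, 10 times the -log10 p that their peak caller gave it against its control. Scores were ranked only within a list. In the Ring1b list 732 peaks were tied at 3100, so that score says only that a peak belonged to the top 5.80% of that list. With 1 library per group there was no replicate error and no test between conditions, and the read depth behind each peak is unknown here.

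Dlx genes encode homeodomain transcription factors that act after stem cells have left pluripotency. In mammals they lie in convergent pairs, tail to tail, each pair linked to a Hox cluster, and enhancers between the genes of a pair are known to act on its members. Dlx1 and Dlx2 direct the development of inhibitory neurons of the forebrain, and with Dlx5 and Dlx6 they pattern the jaws. Dlx5 and Dlx6 also act in limb and bone, and Dlx3 acts in skin, hair, teeth and placenta. In embryonic stem cells Dlx genes are known as silent targets of Polycomb complexes.

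All 6 Dlx genes carried both KAP1 and Ring1b at the promoter, defined by the authors as 1 kb on each side of a transcription start. Symbols found 5 of the 6, since Dlx4 shares a row listed under another name, and the transcript accession found all 6. Of all protein-coding genes, 24.8% were in that shared class by accession and 21.9% by symbol, 58.3% had KAP1 at a promoter and 28.6% had Ring1b. Most genes with Ring1b at a promoter, 5206 of 6012, had KAP1 there too, so KAP1 beside Ring1b is not particular to Dlx. The Ring1b peak of the Dlx promoters was wide and ranked high: it had the tied score of 3100 at 5 of 6 genes, against 10.2% of 6012 genes that had a Ring1b promoter. It was at least 5 kb wide at 4 of 6 Dlx genes, against 3.66% of those 6012 genes, and at least 2 kb wide at 6 of 6, against 21.6%. The KAP1 peak was modest: at 4 of 6 Dlx genes it scored below 96.2, the median of all KAP1 peaks, a position found at 21.8% of the 5206 genes that had both proteins. No peak of the KAP1-knockout list lay at any of the 6 Dlx promoters, where 2.25% of all protein-coding genes had one. Over the whole gene, as tabulated by the authors, 6 of 6 Dlx genes again had both proteins, against 30.6% of protein-coding genes by accession, and symbols found 5 of the 6, against 25.7%. The KAP1 scores listed for the whole gene in the authors' deposited table were 133 for Dlx1, 60 for Dlx2, 92 for Dlx3, 89 for Dlx4, 192 for Dlx5 and 131 for Dlx6. Some of these rows merge a Dlx gene with its neighbours, and that of Dlx6 spans chr6:6819546-6869533. Members of a pair are close neighbours, so these counts are not of 6 independent genes.

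**Figure D1:**
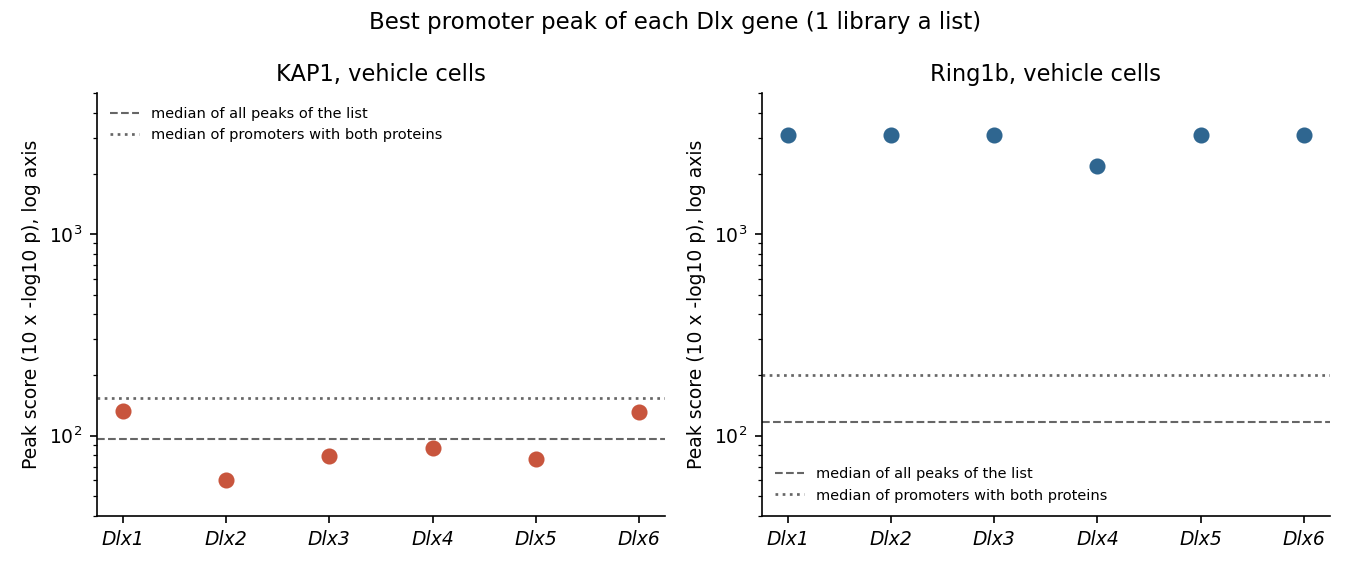
Score of the highest-scoring KAP1 peak (left) and Ring1b peak (right) that touches each Dlx promoter, on log axes, with 1 point per gene from 1 library per list. Dashed lines mark the median of all peaks of a list and dotted lines the median of the 5206 promoters with both proteins. All 6 KAP1 points lie under the dotted line at 154, and all 6 Ring1b points lie far above the dotted line at 200.4.

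Of the 6 Dlx genes, 2 matched the table of promoter sequences, Dlx1 and Dlx2. Both are shown here, with their CpG dinucleotides marked because Polycomb-bound promoters are known to be rich in them, and a promoter of Dlx6os1 is shown as a contrast within the loci. Sequences are from RefSeq on GRCm38.p6, run 5′ to 3′ on the gene's strand, and cover 250 bases before to 50 bases after an annotated start. Capitals mark each CG in the Dlx1 sequence (chr2:71529195-71529494, plus strand) and the Dlx2 sequence (chr2:71546705-71547004, minus strand). In the Dlx6os1 sequence (chr6:6869484-6869783, minus strand) capitals mark TAATT on either strand, the core that Dlx homeodomains are known to recognise.
Dlx1: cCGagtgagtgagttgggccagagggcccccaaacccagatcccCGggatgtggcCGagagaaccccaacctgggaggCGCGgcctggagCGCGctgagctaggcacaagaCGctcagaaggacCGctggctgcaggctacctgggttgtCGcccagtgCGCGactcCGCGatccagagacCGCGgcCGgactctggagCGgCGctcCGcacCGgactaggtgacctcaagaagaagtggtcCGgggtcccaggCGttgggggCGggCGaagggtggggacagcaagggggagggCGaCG
Dlx2: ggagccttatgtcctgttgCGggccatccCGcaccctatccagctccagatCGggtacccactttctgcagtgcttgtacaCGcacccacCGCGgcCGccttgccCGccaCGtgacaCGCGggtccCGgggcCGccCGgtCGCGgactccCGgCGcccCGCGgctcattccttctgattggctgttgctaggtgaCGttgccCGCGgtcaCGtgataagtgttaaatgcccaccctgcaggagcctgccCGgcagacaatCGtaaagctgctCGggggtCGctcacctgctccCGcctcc
Dlx6os1: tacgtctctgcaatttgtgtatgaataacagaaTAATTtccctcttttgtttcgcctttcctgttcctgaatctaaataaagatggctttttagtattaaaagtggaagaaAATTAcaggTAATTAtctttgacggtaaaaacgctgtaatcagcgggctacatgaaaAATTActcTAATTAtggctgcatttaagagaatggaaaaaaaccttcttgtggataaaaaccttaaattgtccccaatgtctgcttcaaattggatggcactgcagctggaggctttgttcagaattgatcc

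The Dlx1 window held 27 CpG dinucleotides and 69.3% G and C, and the Dlx2 window held 29 and 66.3%. These CpG counts exceeded those of 84.5% and 87.1% of 32851 RefSeq promoter windows, whose median was 7. The Dlx1 window lay under a KAP1 peak and a Ring1b peak, whereas the Dlx2 window lay under the Ring1b peak alone, and the KAP1 peak at Dlx2 lay inside the gene. In all, 40.2% of windows met a KAP1 peak and 18.0% met a Ring1b peak. Among the 4679 windows with 21 to 30 CpG dinucleotides the shares were 85.0% for KAP1 and 37.9% for Ring1b.

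Dlx6os1 is a long non-coding RNA, known in mouse forebrain to act on the enhancers of Dlx5 and Dlx6. The Dlx6os1 window printed above held 5 CpG dinucleotides and 35.7% G and C, and no peak of any list touched it. It held TAATT 7 times on the 2 strands, and 0.140% of promoter windows held it as often. The longer word TAATTA, which contains TAATT on each strand, occurred 2 times, and 5.29% of windows held it at all. TAATT itself was present in 27.0% of windows and absent from those of Dlx1 and Dlx2. These are matches of letters and not measured sites. A second RefSeq start of Dlx6os1 (chr6:6861634-6861933, minus strand) had 3 CpG dinucleotides and 4 copies of TAATT, and it lay under the wide Ring1b peak of Dlx6. Among the 6654 windows with 3 to 5 CpG dinucleotides 2.84% met a Ring1b peak.

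**Figure D2:**
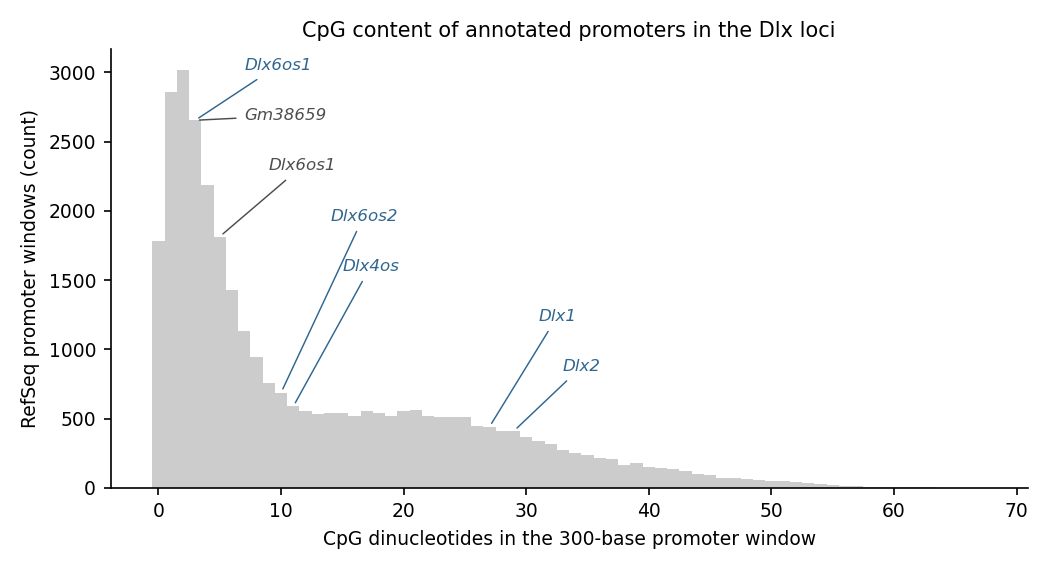
Number of CpG dinucleotides in RefSeq promoter windows of 300 bases (x axis) against the number of windows (y axis, grey bars, all 32851 windows), with lines to the windows found in the 3 loci. Blue names lay under a Ring1b peak and grey names did not. Dlx1 and Dlx2 sit on the CpG-rich right, and 1 of the 2 Dlx6os1 windows and Gm38659 are CpG-poor windows with no Ring1b peak.

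Dlx1 and Dlx2 lie on chromosome 2 (GRCm38), 9426 bp apart. Dlx1 occupies 71528113-71533981 on the plus strand and Dlx2 occupies 71543408-71546754 on the minus strand. Ring1b covered most of the stretch across both: 3 peaks covered 84.4% of a 20212-bp run, and the widest gap was 3021 bp. The Dlx1 peak was 6254 bp wide and ranked 161st by width in the Ring1b list. The Dlx2 peak was 8997 bp wide, ranked 51st and was wider than 99.6% of Ring1b peaks. Both scored 3100, and between them lay a peak of 1799 bp with a score of 793. That middle peak was the single one of the 3 that met no KAP1 peak.

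KAP1 was placed inside those Ring1b domains, in 5 narrower peaks of 474 to 1087 bp. At the Dlx1 promoter the KAP1 score was 133, higher than 67.7% of the KAP1 list, with a second KAP1 peak of score 63.4 further into the gene. At the Dlx2 promoter the score was 60.4, higher than 16.9% of the list. A further peak within Dlx2 scored 52.5, close to the lowest score in the list, 50.0. The highest KAP1 score of the locus was at neither promoter. It was 304, above 94.4% of the KAP1 list, in a 600-bp peak at chr2:71540454-71541053 between the genes, with its summit 6096 bp from the start of Dlx2. That peak lay within the 8997-bp Ring1b domain. Enhancer coordinates were not used here, so whether any peak between the genes covers a known enhancer was not tested.

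Dlx1as, an RNA antisense to Dlx1, had Ring1b but no KAP1 at its promoter, where the Ring1b peak was the domain of Dlx2 with its score of 3100. Metap1d, the methionine aminopeptidase gene upstream of Dlx1, had KAP1 alone. Ring1b peaks stopped before Metap1d, and the next one was 409248 bp from the genes on that side, with a score of 224. On the Dlx2 side the next was 105527 bp away and scored 69.7.

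**Figure D3:**
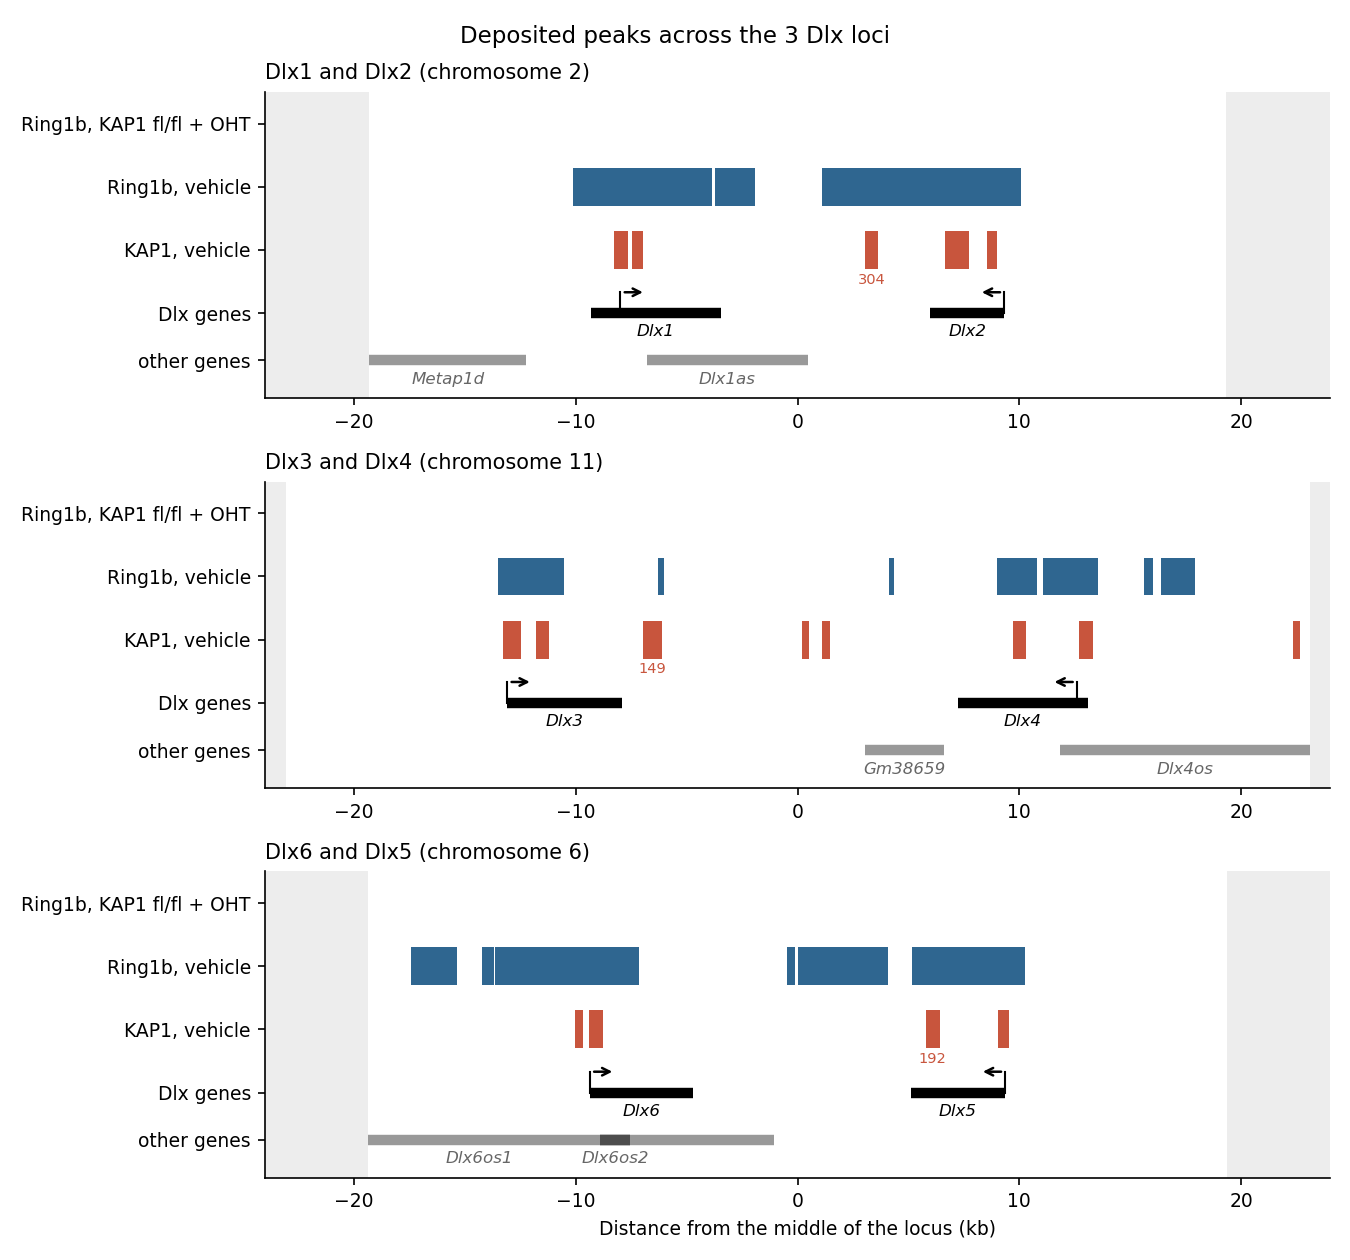
Positions of all peaks of the KAP1-knockout list (top row, empty in each panel), the Ring1b list (blue) and the KAP1 list (red) across the 3 loci, as distance from the middle of the locus in kb, with Dlx genes in black, arrows at their starts and other genes in grey. Numbers give the highest KAP1 score of each locus, and shaded margins lie outside it. Ring1b peaks cover much of the Dlx1 and Dlx2 locus and of the Dlx6 and Dlx5 locus, and less of the Dlx3 and Dlx4 locus.

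Dlx6 and Dlx5 lie on chromosome 6, 9830 bp apart. Dlx6 occupies 6863334-6867970 on the plus strand and Dlx5 occupies 6877801-6882068 on the minus strand. Ring1b was again wide here, in 6 peaks that covered 67.3% of a 27707-bp run. The Dlx6 peak measured 6499 bp and ranked 148th by width, and the Dlx5 peak measured 5096 bp and ranked 237th. Both scored 3100. A further Ring1b peak of 4062 bp, also at 3100, lay between the genes at chr6:6872708-6876769, with its summit 7843 bp from the start of Dlx5. No KAP1 peak met it. It was the 1 of the 6 peaks at 3100 in all 3 loci without KAP1.

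The KAP1 peaks of this locus numbered 4, and each lay inside the Ring1b domain of Dlx6 or of Dlx5. The promoter peak of Dlx6 scored 131, above 67.2% of the KAP1 list, and a smaller one beside it scored 62.3. The promoter peak of Dlx5 scored 76.4, above 35.0% of the list. The highest score, 192, came from a 644-bp peak inside Dlx5 at chr6:6878472-6879115, with its summit 3455 bp from the start of the gene. Between the Ring1b domain of Dlx6 and a 364-bp Ring1b peak of score 111, next to the intergenic one, lay 6643 bp with no Ring1b peak. That stretch holds the start of Dlx6os1 whose sequence is printed above, which lies inside the annotated span of Dlx6os1 (ending at 6871627). Dlx6os2, a long non-coding RNA gene of 1354 bp within the Dlx6 region, shared the promoter row of Dlx6 and so was in the class with both proteins. The domain stood alone: the next Ring1b peaks were 646044 and 672677 bp from the genes, and the next KAP1 peaks 141168 and 73635 bp.

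Dlx3 and Dlx4 lie on chromosome 11, 15150 bp apart. Dlx3 occupies 95120117-95125296 on the plus strand and Dlx4 occupies 95140447-95146294 on the minus strand. Ring1b was narrower and more broken at this pair than at the others: 8 peaks covered 30.7% of a 31436-bp run. The Dlx3 peak was 2533 bp wide with a score of 3100, and the Dlx4 peak was 2490 bp wide with a score of 2179.8, the single Dlx promoter below the tie. They ranked 1135th and 1164th by width, still wider than 91.6% and 91.4% of Ring1b peaks. Peaks of score 718 within Dlx4 and 467 beyond its start followed in strength. The other 4 Ring1b peaks scored 69.6 to 80.6, below 116, the median of the Ring1b list.

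KAP1 had 8 peaks here, against 5 at Dlx1 and Dlx2 and 4 at Dlx6 and Dlx5, and 5 of the 8 met Ring1b. Among peaks in the upper 50% of KAP1 scores the order turned round, with 1 peak here and 2 at each of the others. The promoter peak of Dlx3 scored 78.9, above 37.1% of the KAP1 list, and that of Dlx4 scored 86.7, above 43.3%. Within the genes, a peak in Dlx3 scored 91.9 and a peak in Dlx4 scored 89.1. The highest, 149, was an 876-bp peak at chr11:95126214-95127089, just beyond the end of Dlx3 and 6376 bp from its start. It met a Ring1b peak of 289 bp that scored 69.6. The 3 KAP1 peaks without Ring1b were weak, at 53.4, 56.1 and 62.0. Dlx4os, a non-coding RNA that starts within Dlx4 and runs the other way, shared a promoter row with Dlx4. Gm38659, a non-coding RNA between the genes, had neither protein at a promoter.

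Set side by side, the 3 pairs shared 1 trait of KAP1 placement and differed in others. In each pair the highest KAP1 score was 3455 to 6376 bp from the nearest Dlx start and not at a promoter. How often other genes have this trait was not counted. The peak lay between Dlx1 and Dlx2 in a wide Ring1b domain, inside Dlx5, and beyond the end of Dlx3 at a 289-bp Ring1b peak. Within each pair, 1 member had the higher KAP1 promoter score: Dlx1 over Dlx2 (133 and 60.4), Dlx4 over Dlx3 (86.7 and 78.9), and Dlx6 over Dlx5 (131 and 76.4). Dlx1, Dlx4 and Dlx6 are the members of 1 ancestral branch of the family, and Dlx2, Dlx3 and Dlx5 of the other. The promoter scores of the 2 branches did not overlap, but Dlx4 and Dlx3 differed by less than 10 score units and no replicate exists to give an error. Over the whole gene the deposited scores did overlap, at 133, 89 and 131 for Dlx1, Dlx4 and Dlx6. Those of Dlx2, Dlx3 and Dlx5 were 60, 92 and 192. How often other neighbouring genes separate in such a way was not counted. In the authors' deposited promoter table, which gives other borders for the KAP1 peaks of Dlx1 and Dlx6, the scores were 111, 87 and 153 for Dlx1, Dlx4 and Dlx6, and 60, 79 and 76 for Dlx2, Dlx3 and Dlx5.

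At all 6 promoters the KAP1 peak lay wholly inside the Ring1b peak, which was so at 29.2% of the 5206 genes with both proteins. The Ring1b peaks of the Dlx promoters had a median width of 5675 bp, against 920 bp for all genes with a Ring1b promoter peak, and the part of width in this count was not tested. The summits, the points of strongest signal, were 1568 bp apart at Dlx1, 38 bp at Dlx2, 887 bp at Dlx3, 942 bp at Dlx4, 452 bp at Dlx5 and 99 bp at Dlx6. Their median was 669.5 bp, against 243 bp over the 5206 genes (quartiles 52 and 653). The summits were closest at Dlx2 and farthest apart at Dlx1, but between the centres of the peaks the order turned round. Centres were 3168 bp apart at Dlx2, the farthest of the 6, 1584 bp at Dlx5, 1295 bp at Dlx6, 980 bp at Dlx1, 686 bp at Dlx4 and 632 bp at Dlx3.

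Ring1b summits lay downstream of the start at all 6 genes, at 1732, 565, 846, 401, 427 and 323 bp for Dlx1 to Dlx6 in order. KAP1 summits lay within 41 bp of the start at Dlx3 and Dlx5, which had offsets of -41 and -25 bp. The other KAP1 offsets were 164 bp at Dlx1, 527 bp at Dlx2, -541 bp at Dlx4 and 224 bp at Dlx6, where negative values are upstream. All offsets are from the start in the authors' promoter rows, which at Dlx1 and Dlx4 lies inside the RefSeq span given above. That start is 71529445 for Dlx1, whose span begins at 71528113. For Dlx4 it is 95145801, and the span ends at 95146294. Offsets from the ends of the spans would differ at these genes. The KAP1 summit was thus upstream of the Ring1b summit at each of the 6 genes. The distances at Dlx2 and Dlx6, 38 and 99 bp, were shorter than the sheared fragments of about 200 bp. Neither this order nor the downstream place of Ring1b summits was counted over the 5206 genes with both proteins. Whether they are particular to Dlx is therefore unknown. Ring1b filled 71.5% to 100% of the promoter window of 1 kb on each side, and KAP1 filled 23.7% to 56.9%.

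**Figure D4:**
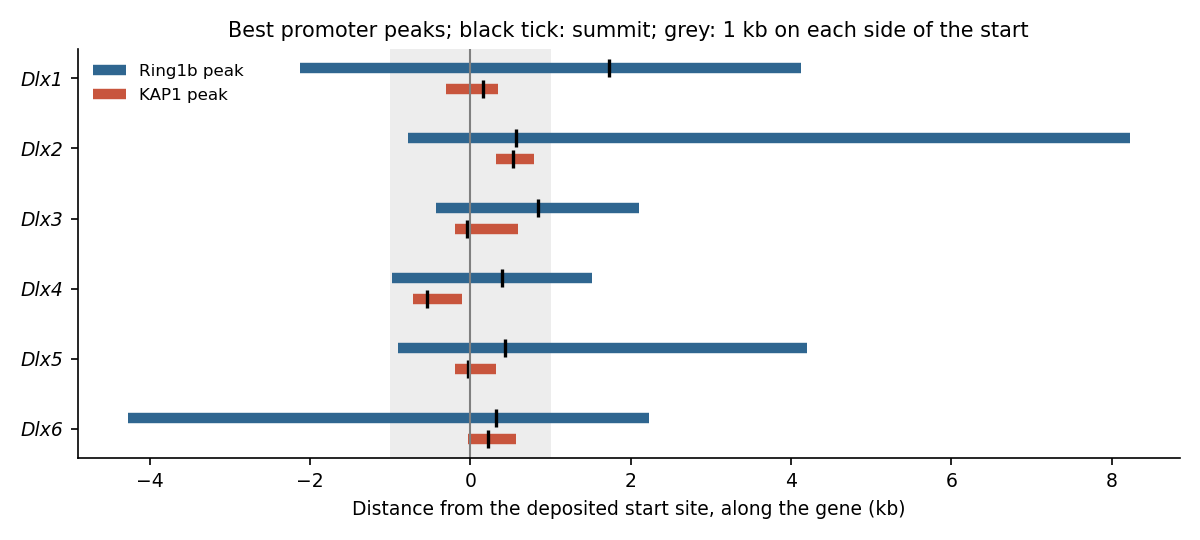
Extent of the highest-scoring Ring1b peak (blue) and KAP1 peak (red) at each Dlx promoter, as distance from the authors' start site along the gene in kb, with black ticks at the summits and grey shading over the promoter window. Each red bar lies within the blue bar above it, and each blue summit lies to the right of the start.

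Over the 3 loci, taken as each pair with 10 kb on either side (123.6 kb in all), there were 17 KAP1 peaks and 17 Ring1b peaks. Peaks were said to meet when they shared at least 1 bp. Of the KAP1 peaks 14 met a Ring1b peak (82.4%, 95% exact binomial interval 56.6% to 96.2%), against 13.7% of all KAP1 peaks. Of the Ring1b peaks 8 met a KAP1 peak (47.1%, interval 23.0% to 72.2%), against 76.6% of all Ring1b peaks. With KAP1 peaks in the upper 50% of scores the Ring1b share was 29.4%, and with at least 50% of a Ring1b peak covered it was 11.8%. So KAP1 in the Dlx loci was mostly found where Ring1b was, while many Ring1b peaks there had no KAP1. Some of those lay close to a Ring1b peak that met KAP1: the peaks of 1799, 440 and 553 bp were 141, 19 and 44 bp away. The share depends on how the caller divided such stretches, and it was not recomputed with close peaks merged. Ring1b peaks covered 36.7% of these loci, and the part of that coverage in the share of 82.4% was not tested. Intervals cover counting error only, and neighbouring peaks are not independent of each other.

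The Ring1b peaks with and without KAP1 were also counted by width. All 4 peaks of 5 kb or more met KAP1, against 86.2% of the 247 such peaks in the whole list. Of the 8 peaks of at least 2 kb 6 met KAP1, against 82.4% of the list's peaks of that width. Of the 9 narrower ones 2 did, against 75.7%, and the 9 include the peaks named above that lay close to a wider one. Coverage by Ring1b was 44.1% of the Dlx1 and Dlx2 locus, 48.2% of the Dlx6 and Dlx5 locus and 20.9% of the Dlx3 and Dlx4 locus. KAP1 covered 8.61%, 5.47% and 9.58% of the same loci. The order of the pairs for KAP1 depended on the setting: with 5-kb flanks the coverage was 11.6% at Dlx1 and Dlx2, 7.38% at Dlx6 and Dlx5 and 11.3% at Dlx3 and Dlx4. With the upper 50% of scores it was 3.22%, 3.21% and 1.90% in the same pair order. Ring1b coverage was lowest at Dlx3 and Dlx4 under each of these settings and with 50-kb flanks, but 5-kb flanks put Dlx1 and Dlx2 (59.5%) above Dlx6 and Dlx5 (57.7%).

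**Figure D5:**
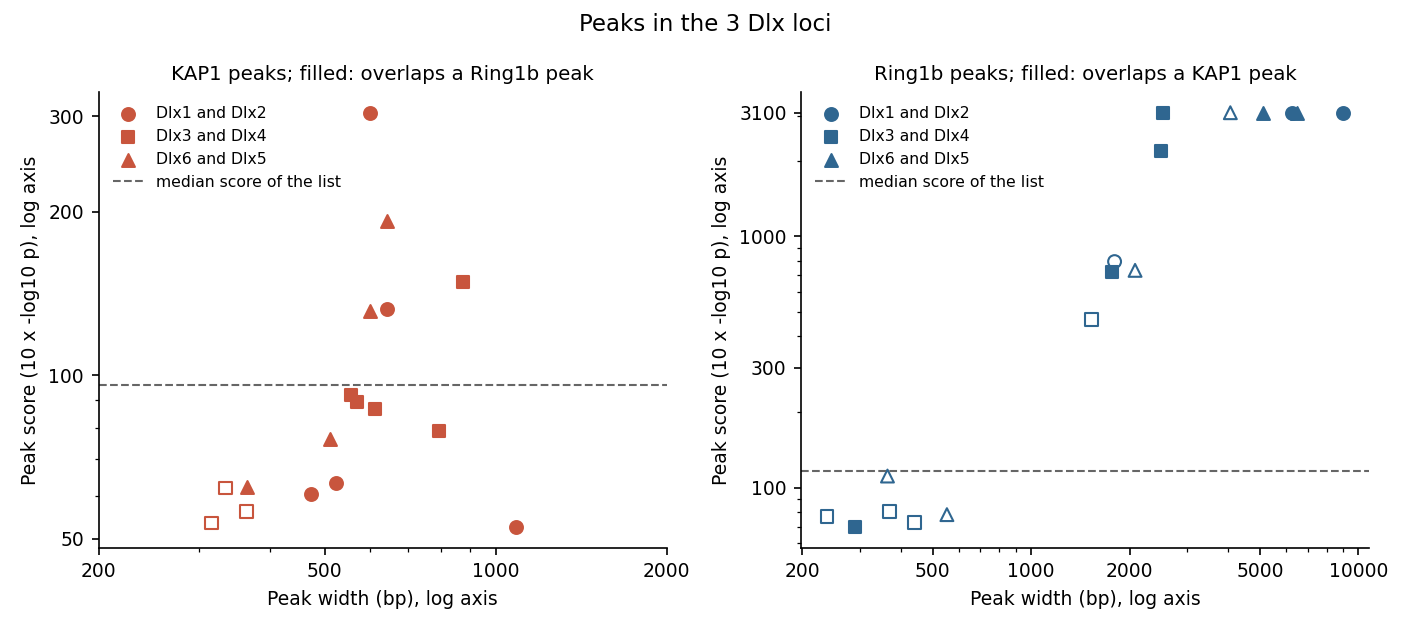
Width in bp (x axis) and score (y axis) of each of the 17 KAP1 peaks (left) and 17 Ring1b peaks (right) in the 3 loci, on log axes, with a symbol for each pair and filled symbols where the peak meets one of the other list. Dashed lines mark the median score of each list. Of the KAP1 peaks 12 lie below the line, and of the Ring1b peaks 6 do, and the 3 KAP1 peaks without Ring1b are among the narrowest.

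Windows of 40 kb centred on each gene allowed a comparison with all 21031 protein-coding genes. Ring1b covered 42.6% of the Dlx1 and of the Dlx2 window, 46.6% for Dlx6 and 37.9% for Dlx5, and 9.97% for Dlx3 and 16.7% for Dlx4. Coverage of at least 20%, which 4 of the Dlx genes had, was found at 1.10% of all genes, and the median gene had none. The windows of a pair overlap and share peaks, so genes of the same pair are not independent counts. The same windows held 4 to 7 KAP1 peaks for the Dlx genes, against a median of 2. Of all genes 30.5% had 4 or more, and 70.9% had at least 1.

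Ring1b in tamoxifen-treated KAP1 fl/fl cells, the KAP1-knockout list, had 0 peaks in the 3 loci, and 0 of the 17 Ring1b peaks of vehicle cells met one. That count allows a share of up to 17.6%. Over the whole Ring1b list the share was 0.326%, so a count of 0 among 17 is near the background and says nothing particular to Dlx. The nearest peak of that list was 103756 bp from the Dlx1 and Dlx2 genes, 23117 bp from Dlx3 and Dlx4, and 610908 bp from Dlx6 and Dlx5. The one near Dlx3, at chr11:95096832-95096999, had a score of 51.8, below the list's median of 58.9. The list was called against a library of another cell line, and Ring1b from vehicle-treated KAP1 fl/fl cells was not analysed here. Within 50 kb of a peak of that list lay 6 of the 17 Dlx Ring1b peaks, against 34.7% of all Ring1b peaks, again near the background. Effects of KAP1 deletion, cell line and library therefore cannot be told apart.

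For each Dlx gene the 2 promoters most like it were found among 5200 genes with both proteins, by the distance over the log10 of 4 values, the score and width of each protein's peak. Dlx1 and Dlx6 were both closest to Pou3f2, a neural transcription factor gene, with a KAP1 score of 130.2 and a Ring1b peak of 7044 bp at 3100. Dlx2 was closest to Onecut2, with a KAP1 score of 62.5 and a Ring1b peak of 9433 bp, and then to Meis2, a homeobox partner of Dlx in the forebrain, with 50.5 and 9123 bp. Dlx5 was closest to Adgrb2 and to Cdx2, a homeobox gene of trophoblast and gut, whose KAP1 scores were 72.8 and 67.0. Dlx3 was closest to Efnb2 and Plxnd1, with Ring1b peaks of 2581 and 2827 bp. Dlx4 was closest to Cabp7 and to Esrrb, a pluripotency factor gene, with Ring1b scores of 2091.5 and 1931.5. Tshz1 and Hmx3 were the second choices for Dlx1 and Dlx6, with KAP1 scores of 117 and 140.2.

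A list of 43 genes known to act with Dlx in other tissues was read in the same way. Ring1b was at the promoter of 38 of them (88.4%, against 28.6% of all genes), and 30 of these scored at least 3100, against 10.2%. Their median Ring1b score was 3100, against 228 for all genes with Ring1b at a promoter. KAP1 was at 27 (62.8%, against 58.3% of all genes) and both proteins at 26 (60.5%, against 24.8%). Among the 38 with Ring1b, the 26 with KAP1 were a lower share than the 5206 of 6012 over all genes with Ring1b. The list therefore stood near the background for KAP1 and above it for Ring1b, and it was chosen with earlier results of these data known.

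By role, the 12 forebrain genes all had Ring1b at 3100, and 8 had KAP1 too. They include Gad1 and Gad2, which encode enzymes of GABA synthesis, with KAP1 scores of 63.3 and 225, and Sp8, a transcription factor gene with Ring1b alone. Among 14 craniofacial and skeletal genes 13 had Ring1b and 10 had both. Hand2, which acts in the lower jaw, and Runx2, which directs bone formation, were at 3100 with KAP1 scores of 61.2 and 71.1, and Sp7, a bone factor gene, had neither protein. Among 10 upstream regulators 8 had Ring1b and 5 had both, including Gsx1, a forebrain factor gene with a KAP1 score of 142, and Fgf8, a growth factor gene with 80.7. Among 7 placental and epidermal genes 5 had Ring1b and 3 had both, and 1 was at 3100 or more, Gata3, with a Ring1b peak of 11319 bp. Gcm1, a placental factor gene, was the single gene of the 43 with KAP1 alone, at 53.8. None of the 43 had a promoter peak of the KAP1-knockout list, against 2.25% of all protein-coding genes, so this absence is near the background.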

How the data were processed

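Peaks and gene tables of KAP1 and Ring1b binding in mouse embryonic stem cells were read as the authors deposited them. The submitters' processing notes name MACS 1.4.2, Bowtie2, bedtools 2.16.2 and CASAVA 1.8.2, and the mm10 (GRCm38) build. The score of each peak is a deposited value, 10 times -log10 p, that the authors' caller made from 1 library against 1 control, so it depends on depth and on the control. Chromatin was sheared to about 200 bp, per the labels' protocols. Groups came from the labels. The members and all lists were chosen with earlier results of these data known.

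Peaks, loci and promoter windows were intersected in Python 3.11.15 with pandas 2.3.3, with at least 1 bp shared. Coordinates are 1-based. Gene spans, strands and promoter sequences came from RefSeq (GRCm38.p6), without exons, so exon or intron is not stated. Symbols found 5 of 6 Dlx genes in the promoter tables and 5 of 6 in the gene tables, because the authors merged overlapping genes into shared rows. RefSeq accessions, a lookup chosen after the data were seen, found 6 of 6 in each. Of 13039 promoter rows, 12939 matched a RefSeq gene. The genes named are the members, all genes in the loci, the 2 nearest promoters per member and examples from a fixed list. The overlap code was tested on simulated data. No statistical test was possible with 1 library per group.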

Additional observations from a re-analysis of the deposited data

How the results depend on the processing

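Each of 29 values was recomputed under other settings, which gave 94 alternatives. A count stayed if within 1.5 times the reported one, and the share if within its interval. Coverage and distance were said to move at any change, however small. Ring1b coverage of the Dlx6 and Dlx5 locus thus moved when it went from 48.2% to 45.8%. By these rules 53 alternatives stayed and 41 moved. The order of the pairs turned round for KAP1 peak numbers and KAP1 coverage, for Ring1b coverage between Dlx1 and Dlx2 and Dlx6 and Dlx5, and the order of the genes turned round for the distance between the proteins. Restricting each list to the upper 50% of its scores left KAP1 at 2 Dlx promoters, those of Dlx1 and Dlx6, both proteins at the same 2, and KAP1, alone or with Ring1b, over 3 whole genes. Under that restriction the KAP1 peaks numbered 2, 1 and 2 (Dlx1 and Dlx2, Dlx3 and Dlx4, Dlx6 and Dlx5), KAP1 covered 3.22%, 1.90% and 3.21% of these loci, and Dlx3 and Dlx4 held 4 Ring1b peaks, with Ring1b covering 18.0% of that locus and 45.8% of the Dlx6 and Dlx5 locus. Asking for the centre of the peak within 1 kb of the start left Ring1b, and both proteins, at 3 promoters. Asking for 1 peak over at least 50% of the window left KAP1, and both proteins, at 0. Merging peaks within 500 bp gave 5 Ring1b peaks at Dlx3 and Dlx4.

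Flanks of 50 kb gave 9 KAP1 peaks at Dlx1 and Dlx2, 17 at Dlx3 and Dlx4, and 1 peak of the KAP1-knockout list at Dlx3 and Dlx4. KAP1 coverage in that pair order was 11.6%, 11.3% and 7.38% with 5-kb flanks and 3.89%, 7.87% and 1.79% with 50-kb flanks. Ring1b coverage was 59.5%, 26.7% and 57.7% with 5-kb flanks and 14.4%, 8.39% and 15.7% with 50-kb flanks. Asking KAP1 to cover 50% of a Ring1b peak lowered the share of Ring1b peaks to 11.8%, and using the upper 50% of KAP1 scores lowered it to 29.4%, within its binomial interval. Within 50 kb, 6 of 17 Ring1b peaks had a KAP1-knockout peak, against 34.7% of all Ring1b peaks. Between peak centres the distances were 980, 3168, 632, 686, 1584 and 1295 bp for Dlx1 to Dlx6, and the cause of the differences from the summits was not tested. Looking up genes by accession, an alternative chosen after the data were seen, gave 6 of 6 genes where symbols gave 5 of 6.

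No paired analysis was possible because each group held 1 library and the comparisons came from no test. Leaving out a replicate was not possible for the same reason. Depth is unknown, so a missing peak means that none was called, not that the protein was absent.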

Other observations

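Besides the Dlx promoters, the pairs differ in how close they lie to the Hox cluster of the same chromosome. Dlx3 and Dlx4 lay 1.05 Mb from the Hoxb cluster, Dlx1 and Dlx2 3.12 Mb from the Hoxd cluster, and Dlx6 and Dlx5 45.3 Mb from the Hoxa cluster. The pair nearest its Hox cluster was the one with the lowest Ring1b coverage, in 3 pairs and with no test.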
